A study of Mus musculus with 6 samples.

Results

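The 39 genes described here are those of sphingolipid metabolism: the enzymes and regulators that make, modify and break down ceramide, sphingomyelin, glycosphingolipids and sphingosine 1-phosphate (S1P), with the S1P receptors. They were chosen by name, and all 39 were found among the 57132 genes of the count table. RNA-seq was performed on 6 samples of differentiated immortalized podocytes, 3 from a wildtype line (IMWT, WT-Col4a3+/+, here WT) and 3 from an Alport syndrome line (IMAS, AS - Col4a3-/-, here AS). Both lines came from kidneys of adult male mice aged 8 weeks and received no treatment. Both also carry the H-2Kb-tsA58 transgene, a temperature-sensitive large T antigen under an interferon-inducible promoter, since the lines were derived from crosses of Col4a3KO mice with that strain. Cells were grown at 33 °C with 20 U/mL interferon gamma and 10% serum and were differentiated at 37 °C for 14 days according to the sample records, while the methods give a shorter period and a lower interferon dose. A single line stands for each genotype, and genotype and line cannot be told apart. The samples are numbered as sets 1 to 3 and are not stated to be separate cultures, so the p-values measure only the spread between these samples.

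Sphingolipids are built on a sphingoid base. Serine palmitoyltransferase condenses serine with palmitoyl-CoA, ceramide synthases add a fatty acid, and a desaturase completes ceramide, from which sphingomyelin and the glycosphingolipids are made. Ceramidases release sphingosine, which is phosphorylated to S1P, a ligand of G protein-coupled receptors that is either exported, dephosphorylated or cleaved for good by S1P lyase. In podocytes, the best known member is Smpdl3b, a sphingomyelinase-like phosphodiesterase of lipid rafts, and GM3, made by St3gal5, is a ganglioside of glomerular cells.

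Start regions of 3 members are shown as they stand in RefSeq (GRCm38.p6), since St3gal5 and Degs1 held the highest WT levels per kilobase of exon among the members and both fell in AS podocytes, and Smpdl3b is the gene in the title of the series. Each run reads 5′ to 3′ along the gene, from 250 bases before the start to 50 after it, and capitals mark a GC box (GGGCGG, either strand) or an E-box (CACGTG). The St3gal5 region lies at chr6:72097358-72097657 (plus strand), that of Degs1 at chr1:182282146-182282445 (minus strand) and that of Smpdl3b at chr4:132757122-132757421 (minus strand).
St3gal5: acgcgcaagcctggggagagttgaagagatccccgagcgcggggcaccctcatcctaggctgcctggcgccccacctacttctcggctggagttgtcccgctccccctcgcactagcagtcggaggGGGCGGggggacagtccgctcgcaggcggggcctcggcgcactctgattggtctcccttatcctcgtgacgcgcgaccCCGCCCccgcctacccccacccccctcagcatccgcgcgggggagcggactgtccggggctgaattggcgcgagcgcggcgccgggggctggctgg
Degs1: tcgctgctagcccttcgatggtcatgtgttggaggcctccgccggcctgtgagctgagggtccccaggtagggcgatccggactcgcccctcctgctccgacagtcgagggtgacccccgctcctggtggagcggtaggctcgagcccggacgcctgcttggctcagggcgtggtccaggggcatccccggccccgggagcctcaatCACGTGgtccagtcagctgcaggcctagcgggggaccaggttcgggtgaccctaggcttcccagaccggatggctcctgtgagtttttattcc
Smpdl3b: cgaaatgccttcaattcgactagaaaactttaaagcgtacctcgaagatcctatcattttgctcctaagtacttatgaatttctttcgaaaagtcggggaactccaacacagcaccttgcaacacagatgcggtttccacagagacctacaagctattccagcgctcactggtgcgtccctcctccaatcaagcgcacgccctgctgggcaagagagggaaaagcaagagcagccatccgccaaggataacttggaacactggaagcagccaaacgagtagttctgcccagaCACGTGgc
The St3gal5 region had a GC content of 72.7% with 33 CpG sites and 2 GC boxes. The Degs1 region had 67.3% with 21 CpG sites and 1 E-box, and the Smpdl3b region 50% with 14 CpG sites and 1 E-box. The median over all 32851 start regions was 52.7% GC and 7 CpG sites. RefSeq start regions were matched for 35 members, 50 regions in all. A GC box stood in 30 of these (60%), against 35.7% of all regions, and an E-box in 8 (16%), against 7.15%. The TATA box (TATAAA, either strand) stood in 2 (4%), against 13.6%. The set of all regions was not filtered for expression in these samples. The regions with GC boxes belonged to 26 members. The E-boxes belonged to Cers2, Cers6, Degs1, Sgms2, Smpd2, Smpdl3b and Sphk1. These matches are descriptions of the sequence only, and binding was not measured.

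The total count was between 45417221 and 54290968 per sample. Levels are given in CPM (counts relative to the TMM-scaled library size). The knocked-out gene Col4a3 was at 938, 1052 and 1272 CPM in the WT samples and at 62.4, 61.2 and 82.9 CPM in the AS samples. It was thus lower in the line labelled Col4a3-/-, though its RNA was still counted there. Protein was not measured. WT replicate 1 stood apart from the other WT samples by the chi-square of counts per degree of freedom. It was 47.2 and 49.5 against WT replicates 2 and 3, which differed from each other by 9.73. The AS pairs ran from 18.6 to 22.2. The correlation of log2 CPM set it apart less, at 0.9885 to 0.9916 between WT samples and 0.9895 to 0.9904 between AS samples. Of 12 podocyte markers, Tcf21 had 0 counts in every sample and Nphs1 was at 0.466 ± 0.00969 CPM in WT and 0.0407 ± 0.0390 CPM in AS samples (SD, n = 3), while Actn4, Synpo and Kirrel were at 379.8 CPM or more in every sample. The summed podocyte markers ran from 2144 to 2464 CPM in WT and from 1702 to 1841 CPM in AS samples. Of the 9 podocyte markers tested, 6 were lower and 2 higher in AS podocytes (edgeR, adjusted p under 0.05). These are 66.7% lower and 22.2% higher, against 19.6% and 20.4% of all genes tested. The sums were 9766 to 12250 CPM in WT and 9093 to 10693 CPM in AS samples for 5 mesangial and stromal markers (led by Acta2, Tagln and Pdgfrb), 642 to 672 and 503 to 533 CPM for 5 parietal markers (led by Cd44, Pax8 and Pax2), and 377 to 424 and 280 to 391 CPM for 4 proximal tubule markers (led by Lrp2, Aqp1 and Cubn). Other markers of these lists were low. As WT and AS means, Itga8 was at 0.840 and 0.641 CPM and Des at 0.902 and 1.08 CPM of the mesangial and stromal list. Krt8 of the parietal list was at 0.0274 and 0.0222 CPM. Slc34a1 of the tubule list was at 0.00722 and 0.00648 CPM. The endothelial markers, led by Kdr, Pecam1 and Emcn, and the leukocyte markers, led by Cd68, Ptprc and Itgam, summed to at most 3.14 CPM in any sample. The part of these markers in the results below was not tested, and in bulk RNA fewer cells of a kind cannot be told apart from less RNA per cell.

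Sphingolipid genes differed in both directions between AS and WT podocytes, and the differences were mostly small. Of the 39 members, 37 passed the filter on low counts. The quasi-likelihood test of edgeR called 17 of these at an adjusted p under 0.05, with 6 higher and 11 lower in the AS line. That is 45.9% of the members tested, close to the 40.1% called over all 16263 genes tested. The share higher was 16.2%, against 20.4% over all genes, and the share lower was 29.7%, against 19.6%. Only Smpd3, Smpdl3a and St3gal5 changed by more than 2-fold, where 11.2% of all genes did so at the same adjusted p. The median log2 fold change of the members was 0.04 and the median absolute one 0.23, against 0.01 and 0.29 over all genes. The WT and AS samples did not overlap in 22 members (59.5%), against 52.3% of all genes. The called members are spread over the pathway. The sphingosine kinase Sphk2, the exporter Spns2, the desaturase Degs1 and the ganglioside enzyme St3gal5 were lower. The S1P lyase Sgpl1, the receptor S1pr2 and the neutral sphingomyelinases Smpd2 and Smpd3 were higher. Of these, Sgpl1 and Smpd2 lost their calls with the median of each chromosome removed. Nearest to the threshold, Sptlc1 and Sgms2 were just inside it (adjusted p = 0.0272 and 0.0293, edgeR) and Cers5 and Ormdl2 just outside (0.0610 and 0.0652).

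**Figure D1:**
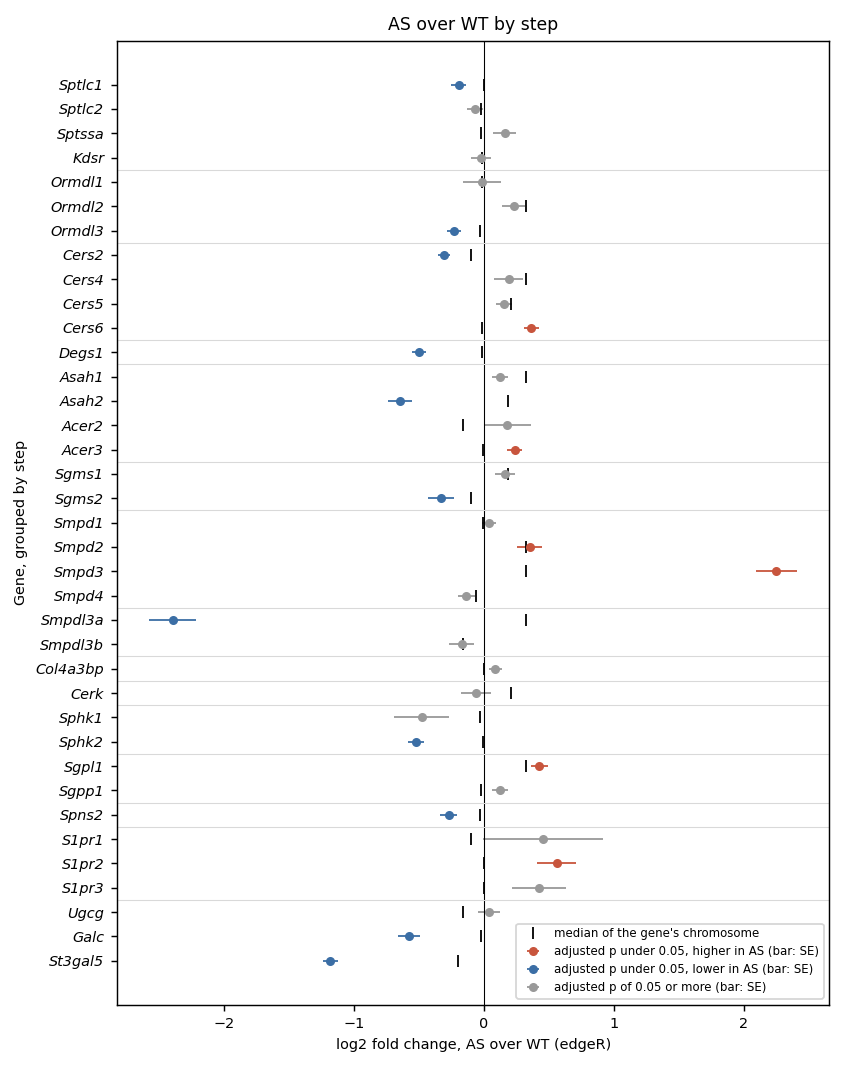
The log2 fold change of AS over WT for the 37 members tested, from edgeR, with bars of 1 standard error; colour marks an adjusted p under 0.05 and the black tick the median of the chromosome that holds the gene. Smpd3 at 2.25 and Smpdl3a at -2.39 lie farthest out, and of the other members St3gal5 at -1.18 lies farthest from 0.

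The first step of the pathway changed little. Serine palmitoyltransferase is a complex of Sptlc1 with Sptlc2 or Sptlc3 and a small subunit such as Sptssa. Sptlc3 had 0 counts in all samples, where 3 counts over a group, the limit for a count of 0, would be 0.0209 CPM in WT and 0.0198 CPM in AS (counting error only). Sptlc1 was at 70.3, 65.9 and 65.8 CPM in WT and at 58.1, 61.8 and 56.6 CPM in AS podocytes, a small decrease without overlap. Its log2 fold change was -0.19 (SE 0.06, adjusted p = 0.0272 in edgeR). The call was lost when AS replicate 1 or AS replicate 3 was left out and with library size only, with an adjusted p of up to 0.0966 in edgeR. Sptlc2, its catalytic partner, had a log2 fold change of -0.07 (SE 0.06), Sptssa of 0.16 (SE 0.09) and the reductase of the next step, Kdsr, of -0.02 (SE 0.08), and none of these passed the test. Of the 3 Ormdl proteins, which inhibit the enzyme when ceramide is plentiful, Ormdl3 fell from 71.7, 68.4 and 68.5 CPM in WT to 59.8, 58.1 and 59.8 CPM in AS podocytes (log2 fold change -0.23, SE 0.05, adjusted p = 0.00670, edgeR). Ormdl1 was at 6.27 ± 0.244 and 6.2 ± 1.07 CPM, with a log2 fold change of -0.01. Ormdl2 averaged 19.0 ± 2.06 CPM over the WT and 22.3 ± 0.38 CPM over the AS samples (SD, n = 3), just outside the threshold (adjusted p = 0.0652, edgeR), and it passed without WT replicate 2.

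The ceramide synthases went in both directions. Cers2, which makes ceramides with very long acyl chains, had the highest level per kilobase of exon of the 4 synthases in WT (47.1 CPM per kilobase, against 29.1 for Cers5, 9.92 for Cers6 and 5.99 for Cers4). It was at 171, 176 and 172 CPM in WT and at 139, 141 and 140.2 CPM in AS podocytes, with 3 tight samples on each side. Its log2 fold change was -0.31 (SE 0.05, adjusted p = 0.000982, edgeR). Cers6, which prefers palmitoyl chains, went the other way: it was at 88.3, 92.4 and 83.3 CPM in WT and at 116, 108 and 115 CPM in AS podocytes. This is a 1.29-fold increase (log2 fold change 0.36, SE 0.06, adjusted p = 0.00105, edgeR). Cers5, which shares that preference, was at 103 ± 5.25 and 115 ± 4.5 CPM (SD, n = 3). It did not overlap between the groups but missed the threshold (log2 fold change 0.15, adjusted p = 0.0610, edgeR). Cers4 overlapped between the groups: it was at 58.2 CPM in WT replicate 1 and between 80.5 and 86.5 CPM in the other samples.

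Degs1 inserts the double bond that turns dihydroceramide into ceramide. It was at 325, 342 and 338 CPM in WT and at 239, 234 and 238 CPM in AS podocytes, so every AS sample lay far below every WT sample. The level was 1.42-fold lower in AS podocytes (log2 fold change -0.50, SE 0.05, adjusted p = 8.58e-05, edgeR), and the log2 fold change stayed between -0.52 and -0.49 with any sample left out. Degs2, the related enzyme that makes phytoceramide, was at or below 0.164 CPM in every sample and was not tested.

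The ceramidases did not move together. Asah2, the neutral ceramidase, was at 64.1, 84.5 and 80.3 CPM in WT and at 50.1, 48.7 and 47.5 CPM in AS podocytes. It fell 1.56-fold (log2 fold change -0.65, SE 0.10, adjusted p = 0.000628, edgeR), with every AS sample below every WT sample. Acer3, an alkaline ceramidase, rose from 30.2, 29.0 and 28.9 CPM to 34.4, 33.7 and 35.6 CPM (log2 fold change 0.23, SE 0.06, adjusted p = 0.0129, edgeR), a call that was lost without AS replicate 3. The lysosomal acid ceramidase Asah1 averaged 139.8 ± 10.2 CPM over the WT and 152 ± 2.52 CPM over the AS samples (SD, n = 3), a log2 fold change of 0.13 that did not pass (adjusted p = 0.147, edgeR). Acer2, a Golgi ceramidase, was at 3.54 ± 0.578 and 4.02 ± 0.578 CPM (SD, n = 3) and did not pass either.

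Of the sphingomyelinases, Smpd2 and Smpd3 rose and Smpd1 and Smpd4 did not pass the test. Smpd3, the neutral sphingomyelinase that acts at the plasma membrane and in exosome release, was at 2.70, 2.59 and 2.58 CPM in WT and at 13.5, 9.84 and 14.1 CPM in AS podocytes. The WT samples were nearly equal, and the lowest AS sample was still far above them. Smpd3 rose 4.75-fold (log2 fold change 2.25, SE 0.16, adjusted p = 6.83e-06, edgeR). Smpd2, another neutral sphingomyelinase, was at 20.8, 21.2 and 21.7 CPM in WT and at 23.5, 31.1 and 26.7 CPM in AS podocytes. Its AS samples were spread but all above WT, and its log2 fold change was 0.35 (SE 0.10, adjusted p = 0.0185, edgeR). That call was lost without WT replicate 2, AS replicate 2 or AS replicate 3. It was also lost with the median of each chromosome removed (log2 fold change 0.03, adjusted p = 0.861, edgeR). The lysosomal acid sphingomyelinase Smpd1 was at 146 ± 2.39 and 149.7 ± 7.82 CPM (SD, n = 3), and the limma 95% interval of its log2 fold change was -0.09 to 0.16. Smpd4, a neutral sphingomyelinase of the endoplasmic reticulum and nuclear envelope, was at 42.8 ± 2.49 and 38.97 ± 1.9 CPM (SD, n = 3) and did not pass.

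The paralogs Smpdl3a and Smpdl3b resemble acid sphingomyelinase in sequence, yet Smpdl3a is a secreted enzyme known to cleave nucleotides and Smpdl3b is tethered to the membrane. Smpdl3a was at 11.9, 13.2 and 12.4 CPM in WT and at 2.29, 3.05 and 1.80 CPM in AS podocytes. The groups were far apart, and Smpdl3a fell 5.25-fold (log2 fold change -2.39, SE 0.18, adjusted p = 1.02e-05, edgeR). Smpdl3b was at 23.3, 30.0 and 29.2 CPM in WT and at 24.5, 23.7 and 25.1 CPM in AS podocytes. The AS samples were tight and lay within the WT range, with WT replicate 1 the lowest of all. Its log2 fold change of -0.17 (SE 0.10) did not pass (adjusted p = 0.195, edgeR), with a limma 95% interval of -0.38 to 0.07. Alternative fits moved it both ways. Without WT replicate 1 the Smpdl3b log2 fold change was -0.28 and passed (adjusted p = 0.00854, edgeR), while with the median of each chromosome removed it was -0.0085 (adjusted p = 0.958, edgeR), the ends of the range over 14 alternative fits. Smpdl3b lies on chromosome 4, whose median log2 fold change was -0.16.

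Sphingomyelin is made from ceramide by Sgms1 in the Golgi and by Sgms2 mainly at the plasma membrane. Col4a3bp (CERT) carries ceramide from the endoplasmic reticulum to the Golgi. A longer product of Col4a3bp is also known as Goodpasture antigen-binding protein. It is named for its binding to the collagen chain encoded by Col4a3, the gene knocked out in the AS line. Col4a3bp itself was at 85.8, 90.3 and 89.8 CPM in WT and at 93.3, 93.7 and 95.2 CPM in AS podocytes, without overlap but with a log2 fold change of only 0.09 (SE 0.05, adjusted p = 0.203, edgeR). Sgms2 was at 50.6, 59.1 and 59.1 CPM in WT and at 51.1, 44.4 and 38.9 CPM in AS podocytes. AS replicate 1 fell inside the WT range, and the log2 fold change of -0.33 (SE 0.10) passed narrowly (adjusted p = 0.0293, edgeR). The call was lost in 4 of 6 fits with 1 sample left out (without WT replicate 2, WT replicate 3, AS replicate 2 or AS replicate 3). It was also lost with the median of each chromosome removed (log2 fold change -0.23, adjusted p = 0.121, edgeR). Sgms1 was at 62.9 ± 2.77 and 70.3 ± 7.09 CPM (SD, n = 3) and did not pass.

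**Figure D2:**
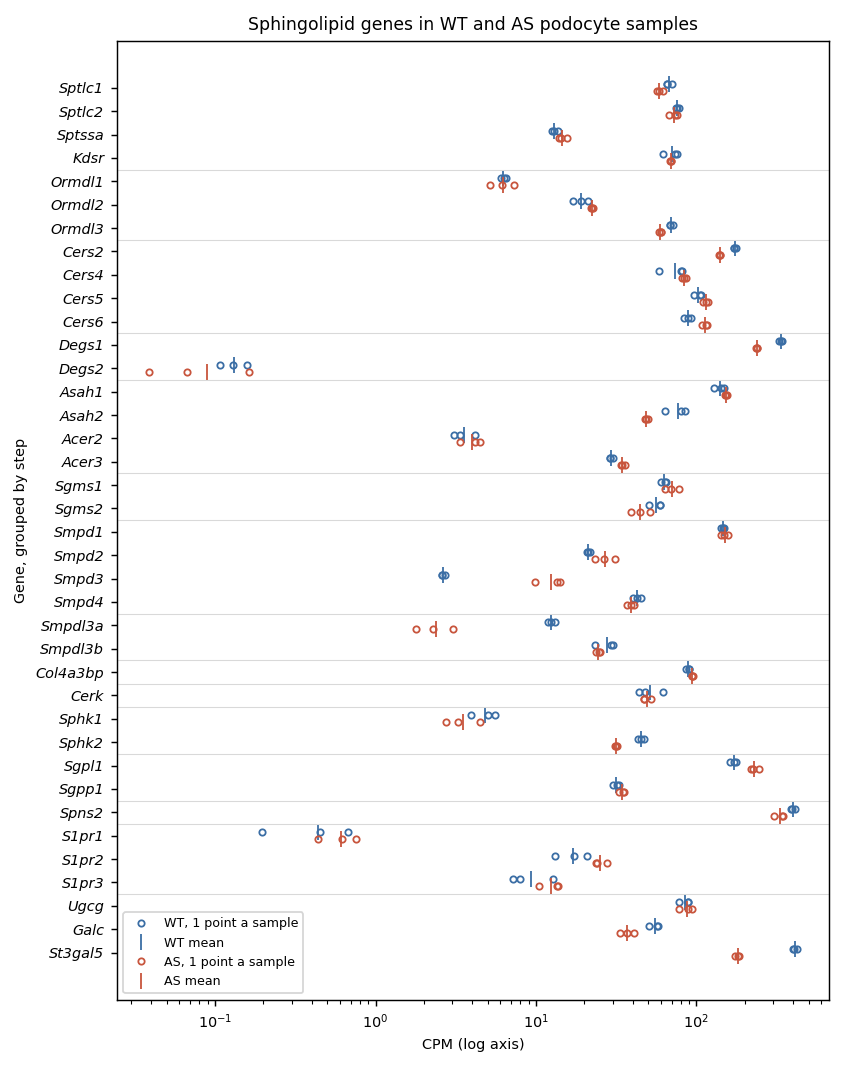
CPM of the members in each sample on a log axis, with open circles for single samples and vertical ticks for the mean of each group (n = 3). Sptlc3, with 0 counts in every sample, is left out. The WT and AS circles are far apart for Smpd3, Smpdl3a and St3gal5, while those of Smpdl3b, Smpd1 and Ugcg overlap.

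Of the genes of S1P, Sphk2 and the exporter Spns2 were lower and the lyase Sgpl1 higher in AS podocytes. Sphk2, the more abundant sphingosine kinase per kilobase of exon (10.8 against 1.01 CPM per kilobase for Sphk1 in WT), was at 45.2, 43.2 and 47.0 CPM in WT and at 32.1, 31.3 and 31.0 CPM in AS podocytes. It fell 1.43-fold (log2 fold change -0.52, SE 0.06, adjusted p = 0.000162, edgeR), without overlap. Sphk1, the cytosolic kinase, was at 5.56, 3.95 and 5.01 CPM in WT and at 4.46, 2.74 and 3.25 CPM in AS podocytes. These samples overlapped, and a log2 fold change of -0.48 (SE 0.21) did not pass. Without AS replicate 1 the Sphk1 log2 fold change was -0.70 and passed (adjusted p = 0.0304, edgeR). Sgpl1, the lyase that ends the pathway, was at 162, 177 and 172 CPM in WT and at 244, 219.9 and 224 CPM in AS podocytes. It rose 1.34-fold (log2 fold change 0.43, SE 0.06, adjusted p = 0.000625, edgeR). With the median of each chromosome removed, the Sgpl1 call was lost (log2 fold change 0.10, adjusted p = 0.248, edgeR). Sgpp1, an S1P phosphatase of the endoplasmic reticulum, was at 31.6 ± 1.26 and 34.4 ± 1.3 CPM (SD, n = 3) and did not pass. Cerk, which phosphorylates ceramide rather than sphingosine, was at 51.1 ± 9.62 and 49.0 ± 2.89 CPM (SD, n = 3).

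Spns2, the S1P exporter, ranked after St3gal5 and Degs1 per kilobase of exon among the members in WT (97.5, against 157 and 129 CPM per kilobase). It was at 411, 392 and 390.0 CPM in WT and at 340.4, 345 and 303 CPM in AS podocytes. The decrease was 1.21-fold (log2 fold change -0.27, SE 0.07, adjusted p = 0.00951, edgeR), with AS replicate 3 the lowest. Of the receptors, S1pr2 was at 13.1, 20.8 and 17.3 CPM in WT and at 24.0, 27.7 and 23.6 CPM in AS podocytes. It rose 1.47-fold (log2 fold change 0.56, SE 0.15, adjusted p = 0.0145, edgeR), a call that was lost without AS replicate 2. S1pr3 was at 12.8 CPM in WT replicate 1, at 7.16 and 7.91 CPM in the other WT samples and at 13.4, 10.4 and 13.7 CPM in AS podocytes. It did not pass (log2 fold change 0.42, SE 0.21, adjusted p = 0.143, edgeR), but without WT replicate 1 the log2 fold change was 0.73 (adjusted p = 0.00199, edgeR), and over the alternative fits the adjusted p ran from 0.00199 to 0.371. S1pr1, the main receptor of endothelium and lymphocytes, was low, at 0.438 ± 0.238 and 0.605 ± 0.162 CPM (SD, n = 3).

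Among related S1P genes that are no members, the lipid phosphate phosphatases Plpp1 and Plpp2, which can dephosphorylate S1P at the cell surface, were higher in AS podocytes. Plpp1 was at 31.9 ± 3.01 and 57.3 ± 1.62 CPM (SD, n = 3), a 1.80-fold increase (log2 fold change 0.85, SE 0.08, adjusted p = 3.12e-05, edgeR). Plpp2 rose 1.47-fold (log2 fold change 0.56, SE 0.10, adjusted p = 0.00218, edgeR). Plpp3 was at 172 CPM in WT replicate 1, 107 and 102 CPM in the other WT samples and 158 to 178 CPM in AS podocytes, and did not pass (log2 fold change 0.40, SE 0.17). Without WT replicate 1 it did (log2 fold change 0.69, adjusted p = 1.25e-05, edgeR), as with chromosome medians removed, with no filter on low counts and with a replicate block, and the adjusted p over the alternative fits reached 0.266. Mfsd2b, the S1P exporter known from red cells and platelets, fell from 24.0 ± 5.27 to 14.2 ± 0.832 CPM (SD, n = 3; log2 fold change -0.76, SE 0.15, adjusted p = 0.00297, edgeR).

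**Figure D3:**
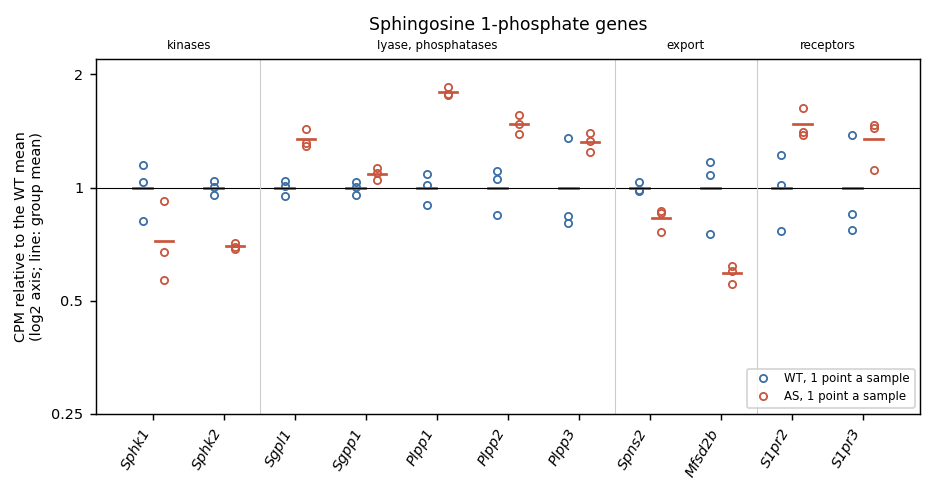
CPM of S1P genes in each sample divided by the WT mean of that gene, on a log2 axis, with a line at the mean of each group (n = 3). All AS samples of Sphk2, Spns2 and Mfsd2b lie below WT and all AS samples of Sgpl1, Plpp1, Plpp2 and S1pr2 above it, while WT replicate 1 of Plpp3 and S1pr3 lies among the AS samples.

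In the glycosphingolipid branch, St3gal5 and Galc fell and Ugcg did not pass the test. St3gal5 adds sialic acid to lactosylceramide to form GM3, the parent of the other gangliosides. It was at 423, 399.7 and 406 CPM in WT and at 185, 181 and 175 CPM in AS podocytes, far apart and tight on both sides. The level was 2.27-fold lower (log2 fold change -1.18, SE 0.06, adjusted p = 5.09e-07, edgeR), and the adjusted p was at most 2.17e-05 over the alternative fits. Ugcg, which makes the glucosylceramide that starts this branch, was at 77.4, 89.1 and 88.0 CPM in WT and at 89.1, 94.0 and 78.1 CPM in AS podocytes. The groups overlapped, and the limma 95% interval of its log2 fold change was -0.15 to 0.22. Galc, the lysosomal galactosylceramidase, fell from 50.3, 56.7 and 58.0 CPM to 36.7, 40.5 and 33.6 CPM (log2 fold change -0.57, SE 0.08, adjusted p = 0.000637, edgeR).

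The neighbouring glycosphingolipid genes that are no members changed on both sides of St3gal5. Of the enzymes that make its substrate lactosylceramide, B4galt6 fell from 36.6, 33.5 and 37.1 CPM to 15.3, 16.03 and 12.9 CPM, a 2.42-fold decrease (log2 fold change -1.28, SE 0.09, adjusted p = 7.20e-06, edgeR). B4galt5 fell 1.18-fold (log2 fold change -0.24, SE 0.06, adjusted p = 0.0128, edgeR). St8sia1, which makes GD3 from GM3 and was named after its values were seen, had 169 counts over the WT and 2 counts over the AS samples, a ratio of 89.1 with an exact 95% counting interval of 24.3 to 742. B4galnt1, which makes GM2, rose 1.46-fold (log2 fold change 0.54, SE 0.06, adjusted p = 7.71e-05, edgeR), and St3gal2, which sialylates later gangliosides, rose 1.56-fold (log2 fold change 0.64, SE 0.06, adjusted p = 4.53e-05, edgeR). They lie on chromosomes 10 and 8, and with chromosome medians removed the log2 fold change was 0.22 for B4galnt1 (adjusted p = 0.0150, edgeR) and 0.32 for St3gal2 (adjusted p = 0.00344, edgeR).

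The enzymes that degrade these lipids were likewise divided. The sialidases fell: Neu3, which acts on gangliosides at the plasma membrane, went from 24.5 ± 1.37 to 11.6 ± 0.768 CPM (SD, n = 3; log2 fold change -1.08, adjusted p = 1.29e-05, edgeR), and the lysosomal Neu1 from 49.9 ± 3.31 to 29.3 ± 1.25 CPM (SD, n = 3; log2 fold change -0.77, adjusted p = 3.40e-05, edgeR). The alpha-galactosidase Gla fell 1.39-fold, a call that was lost without WT replicate 2, and the non-lysosomal glucosylceramidase Gba2 fell 1.26-fold. Arylsulfatase A (Arsa), which cleaves sulfatide, rose from 31.1 ± 1.18 to 57.9 ± 3.17 CPM (SD, n = 3; log2 fold change 0.89, adjusted p = 8.09e-06, edgeR). Psap, the precursor of the saposins, rose 1.38-fold.

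**Figure D4:**
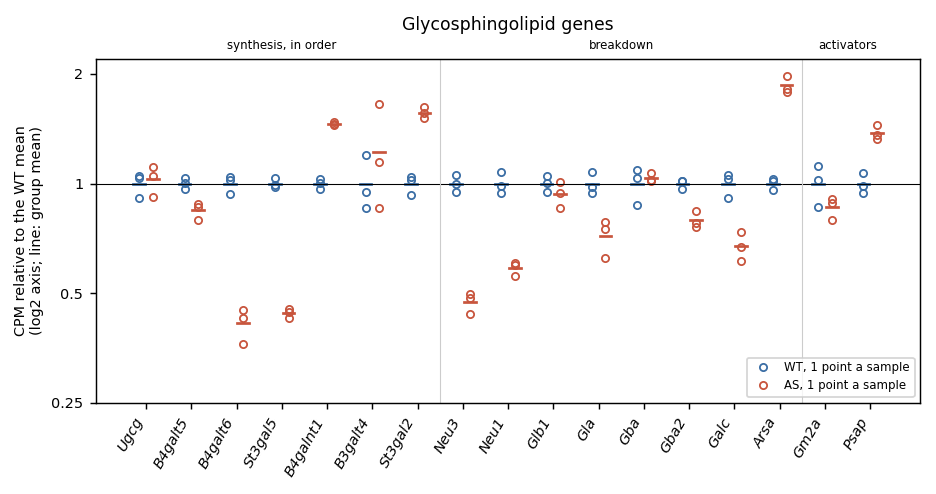
CPM of glycosphingolipid genes in each sample divided by the WT mean of that gene, on a log2 axis, with a line at the mean of each group (n = 3) and only genes with a mean of at least 1 CPM in both groups. B4galt6, St3gal5 and Neu3 have AS means more than 2-fold below WT, while B4galnt1, St3gal2, Arsa and Psap sit above WT.

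Of the 49 other sphingolipid genes looked at, 40 were tested and 23 passed (57.5%, against 40.1% of all genes). Of these, 11 were higher (27.5%, against 20.4%) and 12 lower (30%, against 19.6%) in AS podocytes. The genes of ceramide and sphingomyelin among them include Samd8, a synthase of the ceramide analog of phosphatidylethanolamine, which fell from 74.1 ± 4.86 to 61.3 ± 3.37 CPM (SD, n = 3; log2 fold change -0.27, adjusted p = 0.0104, edgeR). They also include Smpd5, a further neutral sphingomyelinase, which rose from 0.776 ± 0.193 to 2.03 ± 0.223 CPM (SD, n = 3; log2 fold change 1.39, adjusted p = 0.00205, edgeR), and Cers1, which rose from 0.826 ± 0.0792 to 1.54 ± 0.174 CPM (SD, n = 3; log2 fold change 0.90, adjusted p = 0.0141, edgeR). Cers1 shares exons with Gdf1 on the same strand and lost its call without WT replicate 3.

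Ratios between paired members were taken within each sample, as (count + 2) of the first over (count + 2) of the other, so that library scaling plays no part. The smallest p that an exact permutation test of 3 against 3 can give is 0.10, so none of these can pass. Of the 9 pairs with counts, 4 did not overlap between WT and AS podocytes. Each had that p of 0.10 (0.225 after Benjamini-Hochberg adjustment over the 9). The CPM of single genes did not overlap in 52.3% of all genes tested. The share among ratios of other genes was not taken. The Smpdl3b/Smpdl3a ratio was 1.96, 2.28 and 2.35 in WT and 10.5, 7.68 and 13.7 in AS samples. The Sphk1/Sgpl1 ratio, kinase over lyase, was 0.0345, 0.0225 and 0.0294 in WT and 0.0185, 0.0126 and 0.0147 in AS samples, 1.88-fold lower. The other two were Sgms2/Sgms1, 1.41-fold lower, and Cers4/Cers2, 1.43-fold higher in AS podocytes. The Sphk1/Sphk2 ratio overlapped: the WT samples had 0.124, 0.0924 and 0.107 and the AS samples 0.140, 0.0887 and 0.106. The Cers6/Cers5 ratio overlapped as well, with 0.912, 0.868 and 0.790 for the WT samples against 1.01, 0.910 and 1.05 for the AS samples. The S1pr1/S1pr2, S1pr3/S1pr2 and Degs2/Degs1 ratios also overlapped.

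**Figure D5:**
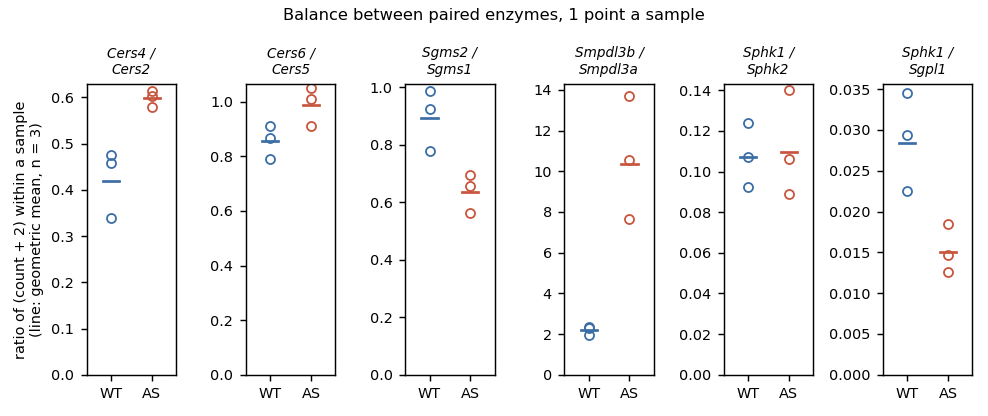
Ratio of (count + 2) for 6 pairs of members in each sample, with a line at the geometric mean of each group (n = 3); each panel has its own axis from 0. The Smpdl3b/Smpdl3a and Sphk1/Sgpl1 panels show WT and AS samples apart, and the Sphk1/Sphk2 panel shows them overlapping.

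The median fold change differed between chromosomes, and several members lie on those with the larger shifts. Over genes with a mean log2 CPM above 2, the median log2 fold change was 0.32 on chromosomes 8 and 10, 0.20 on chromosome 15, 0.19 on chromosome 19, -0.20 on chromosome 6 and -0.16 on chromosome 4. All 3 members on chromosome 8 (Cers4, Asah1 and Smpd3) and 3 of 4 on chromosome 10 (Ormdl2, Smpd2 and Sgpl1) had log2 fold changes above 0, while Smpdl3a, also on chromosome 10, fell. With the median of each chromosome removed, the log2 fold change of Smpd3 was 1.92 and that of Smpdl3a was -2.72, both still called. St3gal5, on chromosome 6, was at -0.98 and still called. The call was lost for Sgpl1, at 0.10 (adjusted p = 0.248, edgeR), for Smpd2, at 0.03 (adjusted p = 0.861, edgeR), and for Sgms2, at -0.23 (adjusted p = 0.121, edgeR). Over the alternative fits, the adjusted p ran from 1.72e-07 to 0.248 for Sgpl1, from 0.00213 to 0.861 for Smpd2 and from 0.000948 to 0.121 for Sgms2. Asah1 turned from 0.13 to -0.20 and passed (adjusted p = 0.0361, edgeR), with a range of 0.0361 to 0.342 over the alternative fits. Psap and Plpp2, on chromosome 10, and Gba2, on chromosome 4, lost their calls in that fit as well, as did Cers1, Tecr and Elovl1. DNA was not measured, and the part of these shifts in single genes was not tested.

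Exons of 16 members overlap those of another gene in GENCODE M21, for 2 of them (Ormdl1 and Sptssa) on the same strand. Whether strand entered the counting is not stated, so such reads cannot be told apart. For the members with large differences, Smpd3 shares 247 bases with Prmt7 (mean 27.2 CPM over the WT and 33.9 CPM over the AS samples), and neither Smpdl3a nor St3gal5 shares any. Smpd2 shares 905 bases with Mical1 (38.5 and 56.4 CPM) and Ormdl2 shares 1114 with Dnajc14 (63.5 and 93.2 CPM), both also higher in the AS mean. Sphk2 shares 539 bases with Dbp (13.2 and 17.5 CPM) and 373 with Rpl18 (246 and 224 CPM), and the values of these members are uncertain to that extent.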

How the data were processed

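RNA-seq was analysed in 3 WT and 3 AS samples. The files deposited hold raw read counts per gene and sample, which the authors did not normalize, from mRNA libraries with 15 PCR cycles. The submitters' processing notes name FastQC, Trim Galore, STAR and edgeR with the mm39 build, with no role or order, while the counting tool and its annotation are not named in them or the methods. Symbols, chromosomes and exon lengths came from GENCODE M21 (GRCm38) by Ensembl identifier without version, where 51880 of 57132 genes matched. The exon coordinates of M21 served only for exon lengths and overlaps, and start regions came from RefSeq (GRCm38.p6). The exon length of a gene covers all its annotated exons and can exceed that of any single transcript. No coordinates on mm39 are given.

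After filterByExpr at a minimum count of 10 and a minimum total of 15, libraries were scaled by TMM and genotype was tested with edgeR's quasi-likelihood test (edgeR 4.0.16, R 4.3.3), two-sided, with Benjamini-Hochberg adjustment over all 16263 genes. The SE is approximate (log2 fold change over the root of F). Intervals are from limma-voom (limma 3.58.1), the study's method. DESeq2 (1.42.0) and the other alternatives are listed in the closing section. Depth was 45417221 to 54290968 counts per sample, and the counting interval and the floors cover counting error alone, because PCR copies of a molecule were not told apart.

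The members, the lists and the tests were chosen with earlier results of these data known. All members are named. Of the other sphingolipid genes, up to 10 called in each direction with a mean CPM of at least 1 are named, and of each marker list the 3 with the highest mean CPM. Nphs1, Tcf21, Itga8, Des, Krt8, Slc34a1, St8sia1, Plpp3, Tecr, Elovl4, Elovl7, Hacd1 and Hacd3 were added after their values were seen. So were the genes that share exons with members and the uncalled genes in the plots. Some genes that these rules select are not reported here.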

Additional observations from a re-analysis of the deposited data

How the results depend on the processing

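The alternatives were RLE in place of TMM normalization, library size only, DESeq2, limma-voom, chromosome medians removed, a replicate block, either no low-count filter or a minimum mean CPM of 1, and each sample left out in turn. The number of members called, 17, stayed between 13 (without AS replicate 3) and 21 (replicate block), and that of the other sphingolipid genes, 23, between 19 and 24. Requiring a fold change over 2, with adjusted or unadjusted p, left 3 members and 4 other genes, fewer by construction. Of 517 single values of the members, 475 kept their direction and side of the threshold, 15 lost it, 12 gained it and 15 turned direction. Of 555 values of the 40 other genes tested, 511 kept both, 20 lost the threshold, 10 gained it and 14 turned.

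For the genes named, the values that turned direction are these. With library size only, the Kdsr log2 fold change was 0.0051, the Ormdl1 log2 fold change was 0.016 and the Elovl7 log2 fold change was 0.0076. With 1 sample left out, Kdsr ran from -0.106 to 0.0311, Ormdl1 from -0.153 to 0.0928, Smpd1 from -0.00842 to 0.0722, Cerk from -0.16 to 0.10, Ugcg from -0.0274 to 0.106, Hacd1 from -0.257 to 0.0434 and Elovl7 from -0.0720 to 0.0229. With chromosome medians removed, Ormdl2 was at -0.096, Cers4 at -0.13, Cers5 at -0.050, Asah1 at -0.20, Sgms1 at -0.026 and Tecr at -0.015. The cause was not tested.

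Whether the set numbers pair the samples is not stated. The deviations of samples from their group mean had correlations of 0.147, 0.0939 and 0.0526 between same-numbered samples, and WT replicate 3 went best with AS replicate 2 (0.0571). With the replicate block 21 members were called, and Ormdl2, Cers5, Sphk1 and S1pr3 gained the threshold, while no member lost it. The number of pairs without overlap was 4, also with a pseudocount of 0.5, and ran from 4 to 5 with 1 sample left out. The Sptlc3/Sptlc2 ratio was not run, since Sptlc3 had 0 counts. Depth limits Degs2 and S1pr1, which were under 1 CPM in every sample.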

Other observations

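Among the 49 other sphingolipid genes listed, 8 elongate fatty acyl-CoAs, the substrates of ceramide synthases, and all 8 were tested. Of these, 4 passed (Elovl6 and Tecr higher, Elovl1 and Hacd2 lower in AS podocytes) and Elovl4, Elovl7, Hacd1 and Hacd3 did not. Elongation genes outside that list were not looked at. Over all genes 40.1% passed. Elovl6, which extends palmitoyl chains, was at 15.9, 17.8 and 19.6 CPM in WT and at 30.9, 34.0 and 29.6 CPM in AS podocytes, a 1.78-fold increase (log2 fold change 0.83, SE 0.09, adjusted p = 0.000108, edgeR). Elovl1, which extends saturated and monounsaturated very long chains, was at 62.8, 68.8 and 65.2 CPM in WT and at 58.1, 58.5 and 56.0 CPM in AS podocytes. Its decrease was small (log2 fold change -0.19, SE 0.06, adjusted p = 0.0256, edgeR). The Elovl1 call held in only 6 of the 14 alternative fits, over which the adjusted p ran up to 0.744. Of the dehydratases of the elongation cycle, Hacd2 fell 1.33-fold (log2 fold change -0.41, SE 0.07, adjusted p = 0.00168, edgeR). Tecr, the reductase of the last step, rose 1.24-fold (log2 fold change 0.31, SE 0.05, adjusted p = 0.000965, edgeR), and it lies on chromosome 8, whose median was 0.32. With chromosome medians removed, Elovl1 and Tecr lost their calls, and Elovl4 gained one without AS replicate 1. The acyl chains of sphingolipids were not measured in these libraries.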
